A study of Homo sapiens with 3 samples.

Results

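The clustered histone genes were taken from the deposited table as every row whose symbol begins with HIST1H, HIST2H, HIST3H or HIST4H. This gave 77 rows with 70 symbols, of 30866 symbols in all: 6 of type H1, 16 of H2A, 20 of H2B, 13 of H3 and 15 of H4. Of them 55 lie on chromosome 6, 14 on chromosome 1 and 1, HIST4H4, on chromosome 12. They were measured by RNA sequencing in HCC827, an established line of human non-small cell lung cancer cells. All 3 populations carried the ClonTracer barcode library and descend from a polyclonal pool. Vehicle cells were kept in 0.1% DMSO for 4 days. Erlotinib-resistant cells came from 47 days in 2 µM erlotinib, which blocks the kinase of the EGF receptor. Dual-resistant cells were obtained from these by 10 days in 2 µM erlotinib together with 0.2 µM crizotinib, which blocks the MET kinase. Each population gave 1 library, so no difference below has a replicate, a test or an error between samples. Drug, resistance and time in culture change together and cannot be told apart.

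Core histones H2A, H2B, H3 and H4 form the protein spool of the nucleosome, and the linker histone H1 binds the DNA between spools. The clustered genes are called replication-dependent because most of them are transcribed in S phase, when new DNA has to be packaged. Their messages are intronless and, as a rule, end in a short stem-loop in place of a poly(A) tail. The protein SLBP binds this stem-loop and governs the processing, translation and decay of the message. Some clustered genes also make longer transcripts that run past the stem-loop and are polyadenylated. Histones outside the clusters, such as H3.3 and H2A.Z, have ordinary polyadenylated messages and are made throughout the cell cycle. The sources used here do not say whether poly(A) RNA was selected for these libraries, and the part of such a selection in the levels was not tested.

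The stem-loop is printed for the genes that the results turn on and whose annotated transcripts contain it, because it sets these messages apart from almost all others. The stem-loop consensus of 16 bases, with either pyrimidine or either purine allowed at its variable positions and any base at one place in the loop, was searched on the sense strand of the GENCODE 29 transcripts. It was found in 50 of 19669 protein-coding genes (0.254%), of which 32 bear a name of this HIST form. Among the 70 genes described here, pseudogenes included, 30 had it in an annotated transcript. For 33 of the other 40 the annotated transcripts hold the coding sequence and nothing beyond the stop codon, so the stem-loop lies outside them. HIST1H2BK, HIST1H1C and HIST2H2AC are among those 40. Each sequence below is 26 bases, 5′ to 3′, with the stem-loop in capitals and its position on GRCh38.
HIST1H2AC (chr6:26124669-26124684, plus strand): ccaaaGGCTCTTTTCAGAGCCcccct
HIST3H2A (chr1:228457369-228457384, minus strand): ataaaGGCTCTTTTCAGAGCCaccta
HIST2H2BE (chr1:149886188-149886203, minus strand): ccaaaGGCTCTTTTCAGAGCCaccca
HIST1H2BG (chr6:26216218-26216233, minus strand): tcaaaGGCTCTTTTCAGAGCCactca
HIST1H2BH (chr6:26252055-26252070, plus strand): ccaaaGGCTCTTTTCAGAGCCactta
HIST1H3H (chr6:27810516-27810531, plus strand): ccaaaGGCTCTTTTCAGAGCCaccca
HIST1H2BC (chr6:26123472-26123487, minus strand): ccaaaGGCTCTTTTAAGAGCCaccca
HIST1H2BD (chr6:26158587-26158602, plus strand): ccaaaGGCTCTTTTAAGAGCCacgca
HIST1H2AG (chr6:27133515-27133530, plus strand): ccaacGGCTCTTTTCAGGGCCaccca
HIST1H4H (chr6:26285131-26285146, minus strand): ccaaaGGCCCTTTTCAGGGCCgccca
HIST1H4J (chr6:27824459-27824474, plus strand): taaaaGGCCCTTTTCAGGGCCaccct
Of the 30 stem-loops, 14 read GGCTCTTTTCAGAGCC, in H2A, H2B and H3 genes. The form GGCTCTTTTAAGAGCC occurred in 5 H2B and H3 genes. H4 genes alone had the forms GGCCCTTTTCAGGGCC, in 5, and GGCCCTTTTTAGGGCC, in 3. Thus the 2 H4 genes shown have a stem that differs from that of the H2A, H2B and H3 genes shown.

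The promoters of the 5 most abundant genes and of HIST1H2BC follow. HIST1H2BK and HIST2H2BE moved alike. HIST1H2BC stands head to head with HIST1H2AC and differed from it in sign in erlotinib-resistant against vehicle cells. The log2 differences were 0.25 for HIST1H2BC and -0.71 for HIST1H2AC, and both genes were highest in dual-resistant cells. Each is the 150 bases before the transcription start in the RefSeq promoter table (GRCh38.p14). Capitals mark TATAAA (the TATA box), CCAAT (the CCAAT box) and ATTTGCAT (the octamer bound by POU-domain factors), each on either strand. Neighbouring matches of TATAAA on opposite strands can share letters.
HIST1H2BK (chr6:27146859-27147008, minus strand): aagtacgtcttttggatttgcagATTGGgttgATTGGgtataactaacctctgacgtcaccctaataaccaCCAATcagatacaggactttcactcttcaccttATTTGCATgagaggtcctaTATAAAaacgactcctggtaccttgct
HIST2H2BE (chr1:149886683-149886832, minus strand): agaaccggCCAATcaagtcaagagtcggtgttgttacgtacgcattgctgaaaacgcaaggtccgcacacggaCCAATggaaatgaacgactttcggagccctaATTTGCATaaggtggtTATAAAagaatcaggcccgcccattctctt
HIST1H2AC (chr6:26124022-26124171, plus strand): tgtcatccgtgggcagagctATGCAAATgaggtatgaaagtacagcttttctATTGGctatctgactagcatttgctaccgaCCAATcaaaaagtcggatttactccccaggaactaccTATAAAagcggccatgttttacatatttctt
HIST1H2BC (chr6:26123927-26124076, minus strand): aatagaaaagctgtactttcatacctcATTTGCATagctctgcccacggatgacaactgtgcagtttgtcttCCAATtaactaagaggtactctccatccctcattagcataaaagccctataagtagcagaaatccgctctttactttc
HIST3H2A (chr1:228457874-228458023, minus strand): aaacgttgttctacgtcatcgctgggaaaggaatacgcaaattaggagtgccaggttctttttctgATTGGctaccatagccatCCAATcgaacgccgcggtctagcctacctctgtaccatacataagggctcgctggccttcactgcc
HIST1H1C (chr6:26056471-26056620, minus strand): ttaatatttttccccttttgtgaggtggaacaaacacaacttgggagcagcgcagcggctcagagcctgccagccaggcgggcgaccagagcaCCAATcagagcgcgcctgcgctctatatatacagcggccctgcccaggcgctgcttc
Promoters were found for 62 of the 70 genes. In the 250 bases before the start, the octamer stood in 14 of 18 H2B and 11 of 14 H2A promoters, in 1 of 11 H3 promoters and in none of the 6 H1 and 13 H4 promoters. These counts are per gene, and head-to-head genes can share an octamer. HIST1H2AC and HIST1H2BC hold the same one, as do HIST2H2AC and HIST2H2BE. The H3 promoter is that of HIST1H3D, whose window is the same as that of the H2A gene HIST1H2AD. The octamer stood in 1.63% of all 35116 promoters of the same length. CCAAT stood in every H1, H2A, H2B and H3 promoter found, in 3 of 13 H4 promoters and in 32.0% of all promoters. TATAAA stood in 40 of 62 histone promoters and in 10.7% of all. In both HIST1H2BK and HIST2H2BE the octamer lies 46 bases before the start, in HIST1H2AC 130 and in HIST1H2BC 123. A position near 46 is not particular to HIST1H2BK and HIST2H2BE. The octamer lies at 47 in HIST1H2BJ, 48 in HIST1H2BG and 49 in HIST1H2BH and HIST2H2BF. Whether its position goes with the differences between libraries was not tested. HIST3H2A and HIST1H1C have CCAAT alone of these motifs. These matches are letters in a window and were not tested as binding sites.

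The files hold no counts, but the short rows show the depth. Among the 37 histone rows of 420 to 510 bases, the lowest values above 0 fell on whole multiples of 0.0636 FPKM in vehicle, 0.0805 in erlotinib-resistant and 0.105 in dual-resistant cells, within a tolerance of 0.2 of a step. This held for 11 of 11, 10 of 10 and 11 of 11 low values, and the step was taken as 1 fragment. In such a row, 1 FPKM then stood on about 15.7, 12.4 and 9.51 fragments. Rows of 340 to 400 bases, all of H4 genes, had steps of 0.0788, 0.100 and 0.131 FPKM, with 3 of 5 low values whole in the dual-resistant library. The vehicle library was thus the deepest. All 6 epithelial markers checked (EPCAM, CDH1, KRT7, KRT8, KRT18, KRT19) stood at 22.8 FPKM or more in every library. Their sum was 5032 FPKM in vehicle, 5200 in erlotinib-resistant and 2292 in dual-resistant cells. The sum of 9 markers of blood, endothelial and fibroblast cells was between 3.32 and 8.21 FPKM, with CD3E listed at 0 in all 3. The part of this difference in epithelial markers in the histone values was not tested.

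Most clustered histone genes were at very low levels. Of the 70, 28 reached 1 FPKM in at least 1 library and could be compared, and 12 reached 5 FPKM. Another 18 had values above 0 but below 1 FPKM in every library, the highest being HIST2H3D at 0.995 FPKM in the dual-resistant library. A further 13 were below 1 FPKM and listed at exactly 0 in 1 or 2 libraries, and 11 were listed at 0 in all 3. The median of the values above 0 was 0.643 FPKM in vehicle, 0.829 in erlotinib-resistant and 0.927 in dual-resistant cells. Exact zeros numbered 15, 19 and 19 of 70, or 21.4%, 27.1% and 27.1%, against 41.1%, 43.4% and 41.9% of all 30790 symbols without a missing cell. A listed 0 can be a failed estimate, so these counts keep zeros and low values apart. Among the 28 compared, HIST2H2BA alone held a listed 0.

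The 11 genes at 0 throughout fall into groups. HIST1H2AA and HIST1H2BA, at the start of the chromosome 6 cluster, are known as testis histones. HIST2H2AA4, HIST2H3A, HIST2H4A and HIST2H4B stand on 2 rows each on chromosome 1, and all 8 rows are at 0. Coding sequences in GENCODE could be compared with another histone gene of the same length for 57 of the 70. A copy with an identical coding sequence was found for 6 of them: these 4, and HIST1H4J and HIST1H4K, which match each other. The closest copies had a median identity of 90.2% over all 57 genes. The sources used here do not say how reads that match several copies were counted, so values of such copies are uncertain. HIST1H1A, HIST1H2APS1, HIST1H2BM, HIST1H3E and HIST1H4G were the others at 0. HIST1H3E lies within a row labelled HIST1H3F (chromosome 6, 26224427 to 26226589, GRCh37) that stood at 2.05, 2.69 and 3.61 FPKM in vehicle, erlotinib-resistant and dual-resistant cells. The symbol HIST1H3F stands on 3 rows at different places, of which another overlaps HIST1H3D. Its summed value of 3.14, 3.57 and 6.05 FPKM therefore cannot be assigned to 1 gene. In all, 14 of the 77 rows overlap another row.

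In all, 14 genes were listed at 0 in some libraries only. Of these HIST2H2BA, an H2B pseudogene on chromosome 1 (120906034 to 120914842, GRCh37), was the only one to reach 1 FPKM. It stood at 1.17 FPKM in vehicle cells and was listed at 0 in both resistant libraries. The other 13 stayed at 0.351 FPKM or less.

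A few genes carried most of the signal. The 5 with the highest mean, HIST1H2BK, HIST1H2AC, HIST3H2A, HIST1H1C and HIST2H2BE, made up 81.0% of the summed FPKM of the 70 in vehicle cells, 67.3% in erlotinib-resistant cells and 72.6% in dual-resistant cells. In bulk RNA, fewer cells that express a gene and less RNA per cell cannot be told apart. The whole sum was 308 FPKM in vehicle, 193 in erlotinib-resistant and 326 in dual-resistant cells. The 5 leading genes summed to 249, 130 and 237 FPKM, and the other 65 to 58.3, 63.0 and 89.3 FPKM. The lower sum in erlotinib-resistant cells thus lay in the 5 leading genes, which were 1.92-fold lower there than in vehicle, while the sum of the others was 1.08-fold higher. In dual-resistant cells the leading genes differed from vehicle by 1.05-fold and the others were 1.53-fold higher. Each of the 5 was lowest in the erlotinib-resistant library, as were 27.8% of all 13365 genes compared. Of the other 23 compared histone genes, 9 were lowest there, 11 in vehicle and 3 in dual-resistant cells. Of these 23, 15 were highest in the dual-resistant library, against 35.9% of all genes compared.

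**Figure D1:**
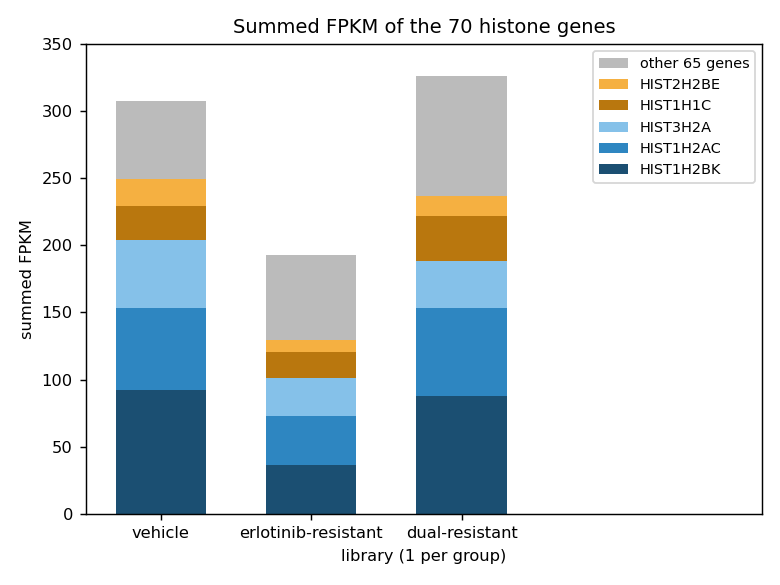
Summed FPKM of the 70 histone genes (vertical axis) in each of the 3 libraries, 1 per group, with the 5 leading genes in colour and the other 65 in grey. The bar falls from 308 FPKM in vehicle to 193 in erlotinib-resistant cells and stands at 326 in dual-resistant cells, while the grey part grows from 58.3 to 63.0 and 89.3.

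By type, H2B genes summed to 141, 79.1 and 152 FPKM in vehicle, erlotinib-resistant and dual-resistant cells. H2A genes summed to 120, 75.5 and 115 FPKM. H1 genes, 27.6, 22.1 and 35.0 FPKM, were nearly all HIST1H1C, which held between 88.4% and 95.03% of that sum. H3 and H4 were far lower, with 8.98, 8.88 and 14.4 FPKM for H3 and 9.09, 7.38 and 10.5 for H4. The 4 core types, which enter the nucleosome in equal number, were thus not near equal in these values. By chromosome, the genes of chromosome 6 summed to 226, 145 and 267 FPKM, and those of chromosome 1 to 80.2, 47.2 and 58.2. The sum was therefore 1.18-fold higher in dual-resistant than in vehicle cells on chromosome 6 and 1.38-fold lower on chromosome 1. HIST4H4 on chromosome 12 stood at 1.07, 1.04 and 1.24 FPKM. Along chromosome 6 the genes form 3 stretches more than 500 kb apart. The first (25726291 to 26285762, GRCh37) summed to 119, 98.2 and 163 FPKM, the second (27100095 to 27115346) to 95.8, 38.9 and 93.2, and the third (27775257 to 27861669) to 11.2, 7.41 and 11.1. In the second stretch HIST1H2BK alone held most of the sum.

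**Figure D2:**
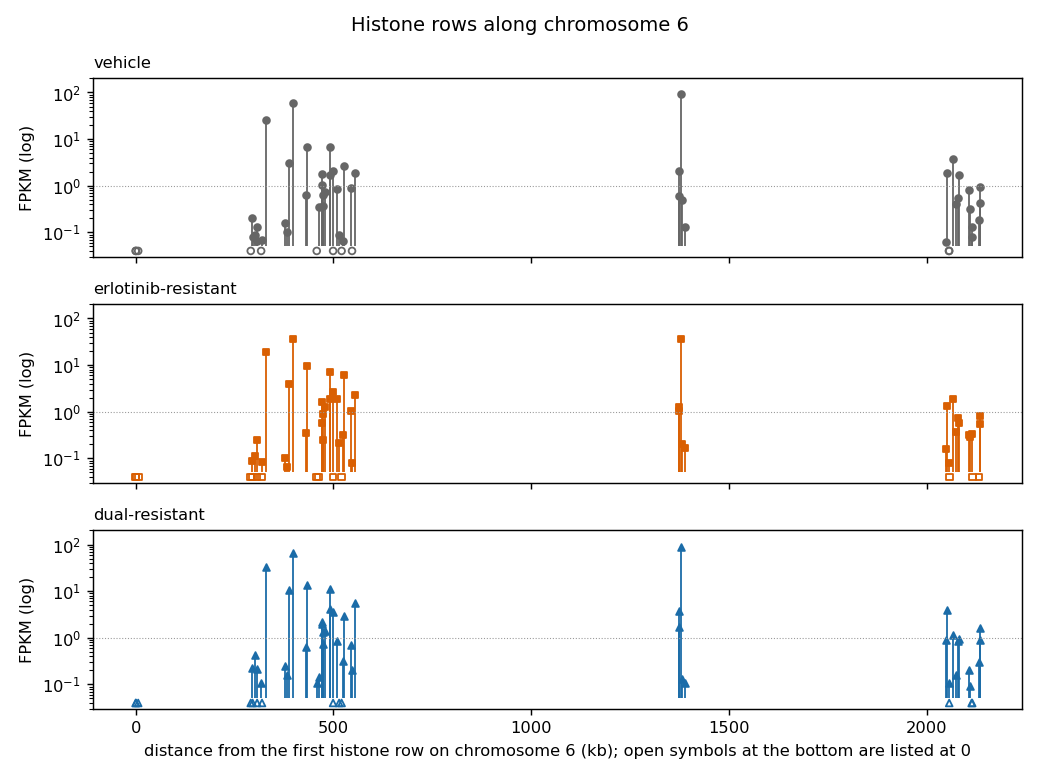
FPKM (log axis) of each histone row on chromosome 6 against its distance in kb from the first of them, with 1 panel per library and open symbols for rows listed at 0. A few rows, HIST1H1C, HIST1H2AC and HIST1H2BK among them, stand above 10 FPKM in every library, whereas most lie below the dotted line at 1 FPKM.

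Rows that span more than 1000 bases, whose models reach beyond a simple histone unit, were more often among the measured ones. Of 16 such rows 13 reached 1 FPKM, and of 61 shorter rows 16 did. In 23 of the 30 genes with a stem-loop, a transcript that contains it runs 100 bases or more past it, and 16 of these 23 reached 1 FPKM. In the other 7, of which 3 reached 1 FPKM, the transcripts that contain it end within 100 bases. HIST1H2BD is among these 7, but its longest transcript lacks the stem-loop, as do those of HIST1H2BC and HIST1H2BN. Of the shorter rows, 5 reached 5 FPKM. HIST3H2A is a short row that was nevertheless abundant, and its GENCODE transcript runs 390 bases past the stem-loop. HIST1H1C is another, of 732 bases. Its GENCODE transcript, of 642 bases, is shorter than the row and holds no stem-loop, so one beyond its end would be missed. It stood at 25.7, 19.5 and 33.3 FPKM in vehicle, erlotinib-resistant and dual-resistant cells. These are counts over annotated models, and transcripts that end at the stem-loop were not separated from longer ones in the table.

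For the comparisons between libraries, a gene was called higher or lower at a difference of 1 or more in log2(FPKM + 1). With so few fragments behind most of them, this scale understates differences of low genes. Folds of single genes are given on the FPKM + 1 scale, unless called an FPKM ratio, and ratios of sums and of neighbouring genes are plain. A gene that passed the filter of 1 FPKM through a single library is highest there by construction. The dual-resistant library was highest for 17 of the 28 compared genes, vehicle for 7 and erlotinib-resistant for 4. Over all 13365 genes compared these shares were 35.9%, 34.2% and 29.9%. The 3 comparisons share libraries and are not independent.

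**Figure D3:**
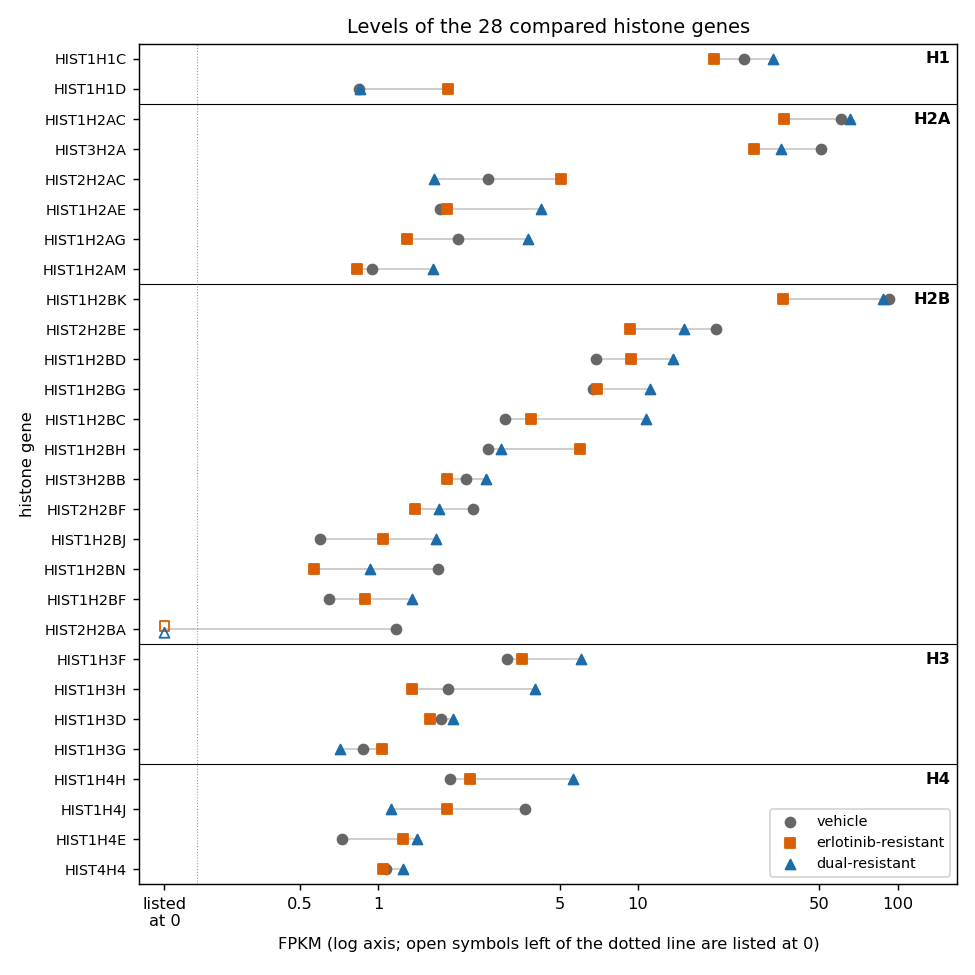
FPKM (log axis) of the 28 compared histone genes in the vehicle (circles), erlotinib-resistant (squares) and dual-resistant (triangles) libraries, grouped by type and ordered by mean. The 5 leading genes have the square at the left, and HIST2H2BA has open symbols because 2 of its values are listed at 0.

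In erlotinib-resistant against vehicle cells, 3 of the 28 genes were lower and none higher. The background over all genes was 6.03% lower and 3.80% higher, against 10.7% and 0% here. With genes listed at 0 left out, 2 of 27 histone genes and 675 of 13059 genes in all were lower. The median difference was -0.05 for the histone genes and 0.0012 for all genes. The histone median had no stable sign: it was 0.02 with equal FPKM sums and 0.10 over the 12 genes of at least 5 FPKM. Equal sums also moved the median of all genes to 0.14 and the share of higher among all calls from 38.7% to 53.6%. The 3 were all H2B genes, as are 12 of the 28 compared: HIST1H2BK, HIST2H2BE and the pseudogene HIST2H2BA.

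HIST1H2BK (now H2BC12, chromosome 6, 27106072 to 27114637, GRCh37), which encodes an H2B, stood at 92.5 FPKM in vehicle, 36.2 in erlotinib-resistant and 87.6 in dual-resistant cells. The erlotinib-resistant library was low and the other libraries were close to each other. On the FPKM + 1 scale the gene was 2.51-fold lower in erlotinib-resistant than in vehicle cells and 2.38-fold higher in dual-resistant than in erlotinib-resistant cells. The row also spans HIST1H4I, an H4 gene at 0.485, 0.203 and 0.131 FPKM. HIST2H2BE (now H2BC21, chromosome 1, 149856010 to 149858232), another H2B gene, stood at 19.9, 9.32 and 15.1 FPKM. It was 2.03-fold lower in erlotinib-resistant than in vehicle cells on the same scale, and fell short of the limit when libraries were scaled to the same sum (log2 difference -0.86).

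The other 3 leading genes were lowest in the same library but within the limit. HIST1H2AC (now H2AC6, chromosome 6, 26124373 to 26139332), an H2A gene, stood at 60.5, 36.6 and 65.4 FPKM in vehicle, erlotinib-resistant and dual-resistant cells. HIST3H2A (now H2AC25, chromosome 1, 228645065 to 228645560), an H2A gene of the small HIST3 cluster, stood at 50.6, 28.1 and 35.7 FPKM. Being a short row, its values rest on about 796, 349 and 339 fragments. The FPKM ratio of vehicle to erlotinib-resistant cells was 1.803, with a 95% interval of 1.59 to 2.05 from counting error alone (exact binomial, Clopper-Pearson). The FPKM ratio of dual-resistant to erlotinib-resistant was 1.27 (1.09 to 1.48), and both intervals lie above 1, whereas the error between cultures is unknown. HIST1H1C (now H1-2, chromosome 6, 26055968 to 26056699), a linker histone gene, stood at 25.7, 19.5 and 33.3 FPKM, with a log2 difference of -0.38 and then 0.74 between successive libraries.

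The largest differences in the other direction were those of low genes. HIST1H2BH (now H2BC9), an H2B gene of the first stretch, stood at 2.66, 5.997 and 2.96 FPKM, about 42, 74 and 28 fragments. It was high in the erlotinib-resistant library alone. Its FPKM ratio of erlotinib-resistant to vehicle was 2.26 (counting interval 1.51 to 3.34), and its log2 difference of 0.94 on the FPKM + 1 scale lay just within the limit. HIST2H2AC (now H2AC20), an H2A gene that faces HIST2H2BE, stood at 2.64, 5.07 and 1.64 FPKM, about 42, 63 and 16 fragments, and was likewise highest there. Its FPKM ratio of erlotinib-resistant to vehicle was 1.92 (1.26 to 2.88). HIST1H1D, a second linker histone gene, stood at 0.843, 1.85 and 0.847 FPKM.

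In dual-resistant against erlotinib-resistant cells, 5 of the 28 genes were higher and 1 lower. The background was 10.1% higher and 7.22% lower, against 17.9% and 3.57% here. The median difference was 0.37 for the histone genes, with 22 of 28 above 0, and -0.03 for all genes, with 6391 of 13365 above 0. Over the alternatives the histone median stayed above 0, from 0.11 over all 70 genes and 0.17 with a pseudocount of 5 to 0.59 with a pseudocount of 0.1 and 0.63 over the 12 genes of at least 5 FPKM. All 5 higher genes lie on chromosome 6, as do 21 of the 28 compared. The lower one, HIST2H2AC, lies on chromosome 1, as do 6 of the 28.

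The 5 higher genes belong to 4 types. HIST1H2BK, described above, and HIST1H2BC (now H2BC4, chromosome 6, 26114626 to 26124154) are H2B genes. HIST1H2BC stood at 3.07, 3.86 and 10.8 FPKM, high in dual-resistant cells only, and was 2.42-fold higher than in erlotinib-resistant cells. HIST1H2AG (now H2AC11), an H2A gene, stood at 2.02, 1.29 and 3.76 FPKM, about 32, 16 and 36 fragments. Its FPKM ratio of dual-resistant to erlotinib-resistant was 2.90, with a counting interval of 1.59 to 5.67. HIST1H3H (now H3C10), an H3 gene, stood at 1.85, 1.34 and 3.999 FPKM and was 2.13-fold higher. HIST1H4H (now H4C8), an H4 gene, stood at 1.88, 2.26 and 5.62 FPKM and was 2.03-fold higher. Except for HIST1H2BK, each of these was above its vehicle value too. HIST2H2AC was the exception in direction, at 1.64 FPKM against 5.07, with an FPKM ratio of erlotinib-resistant to dual-resistant of 3.09 (1.72 to 5.59).

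Other H2B and H2A genes of the first chromosome 6 stretch were also highest in dual-resistant cells, within the limit. HIST1H2BD (now H2BC5) stood at 6.895, 9.39 and 13.6 FPKM. HIST1H2BG (now H2BC8) stood at 6.71, 6.97 and 11.2 FPKM, about 106, 87 and 106 fragments. Its FPKM ratio of dual-resistant to erlotinib-resistant was 1.60 (1.19 to 2.14). The number of fragments was equal in vehicle and dual-resistant cells, and 1 fragment was worth more FPKM in the shallower dual-resistant library. HIST1H2AE stood at 1.73, 1.84 and 4.24 FPKM.

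The lowest of the compared genes were near 1 FPKM throughout. Among H2B genes, HIST1H2BJ stood at 0.594, 1.04 and 1.67 FPKM and HIST1H2BF at 0.643, 0.887 and 1.34, both highest in dual-resistant cells. HIST1H2BN, at 1.70, 0.564 and 0.927 FPKM, and HIST2H2BF, at 2.32, 1.39 and 1.72, were highest in vehicle cells. The H2A gene HIST1H2AM stood at 0.947, 0.829 and 1.62 FPKM. The H3 genes HIST1H3D and HIST1H3G stood at 1.74, 1.59 and 1.94 and at 0.873, 1.04 and 0.714 FPKM, and the H4 gene HIST1H4E at 0.724, 1.25 and 1.41. None of these genes was called in any comparison, and in the short rows among them a value rests on 7 to 16 fragments.

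**Figure D4:**
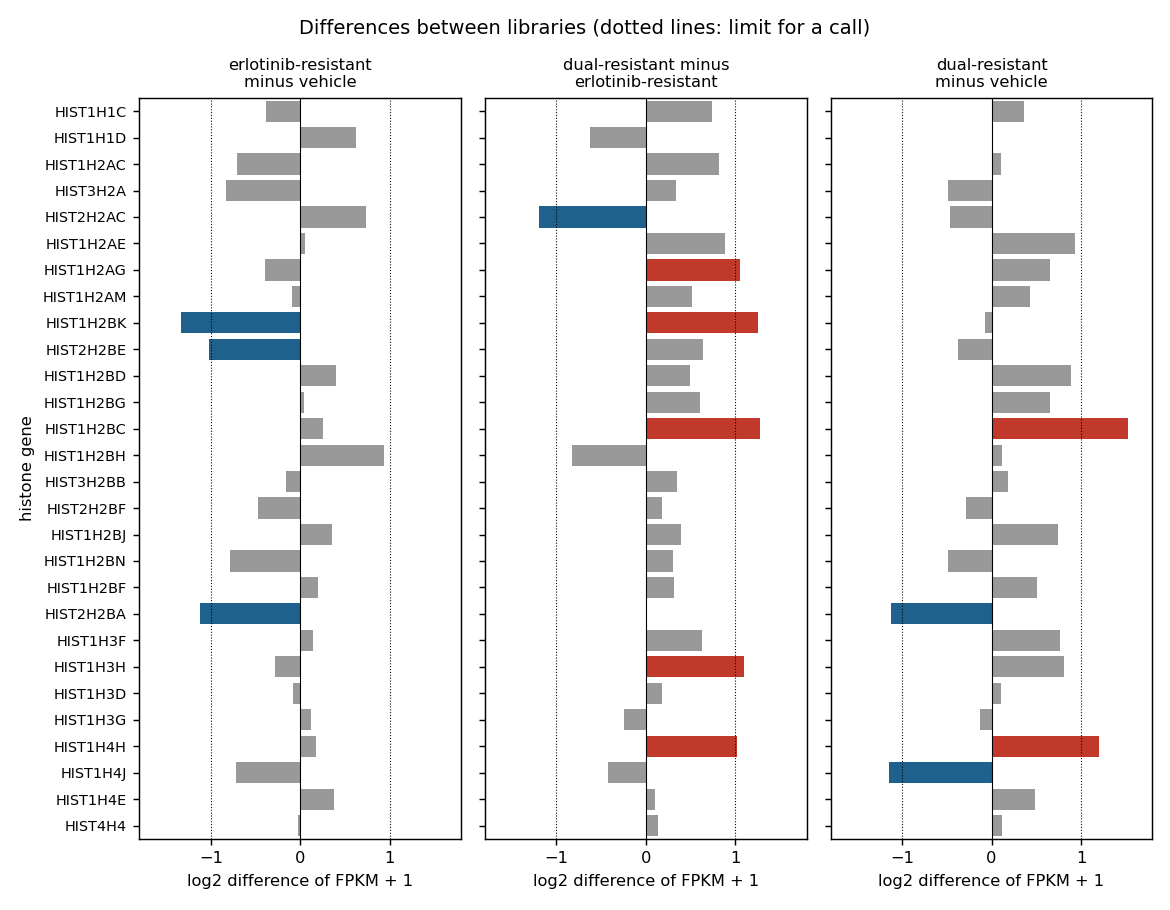
Log2 difference of FPKM + 1 for the 28 compared histone genes in the 3 comparisons (horizontal axes), with dotted lines at the limit of 1 in either direction and called genes in colour. The first panel has 3 lower genes, the second 5 higher and 1 lower, and the third 2 higher and 2 lower.

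In dual-resistant against vehicle cells, 2 of the 28 genes were higher and 2 lower, 7.14% each, against a background of 11.0% higher and 10.4% lower. The median difference was 0.15 for the histone genes and -0.01 for all genes. The histone median was 0.0044 over all 70 genes, 0.09 with a pseudocount of 5 and 0.22 with one of 0.1, and 0.24 over the 12 genes of at least 5 FPKM. Scaling to equal sums moved it to 0.38, the median of all genes to 0.22, and the share of higher among all calls from 51.3% to 66.1%. It also moved the histone counts to 5 higher and 1 lower, and those of all 13386 genes then compared to 2056 and 1055. HIST1H2BC was 2.89-fold and HIST1H4H 2.30-fold higher than in vehicle cells. HIST1H4J (now H4C11, chromosome 6, 27791903 to 27792258), an H4 gene, was lower, at 3.68, 1.84 and 1.12 FPKM, about 47, 18 and 9 fragments. It was high in vehicle cells, and the ratio of vehicle to dual-resistant FPKM was 3.28 (counting interval 1.52 to 7.30). The steps used, 0.0788, 0.100 and 0.131 FPKM, are the lowest values of rows of 340 to 400 bases. Rows close to its length of 356 bases had higher lowest values. HIST1H4B had 0.0880 and 0.111 FPKM in vehicle and erlotinib-resistant cells, and HIST1H4K had 0.162 in dual-resistant cells. The fragment counts of HIST1H4J may therefore be too high and its interval too narrow. Its coding sequence is identical to that of HIST1H4K, which stood at 0.401, 0.371 and 0.162 FPKM, so the division of reads between them is uncertain. The other lower gene was HIST2H2BA, through its listed zeros.

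By type, the median difference of dual-resistant against erlotinib-resistant cells was 0.67 over 6 H2A genes, 0.37 over 12 H2B genes, 0.40 over 4 H3 genes and 0.12 over 4 H4 genes. The 2 H1 genes compared went in different directions, HIST1H1C with 0.74 and HIST1H1D with -0.63. By chromosome, the median of dual-resistant against vehicle cells was 0.48 over 21 genes of chromosome 6 and -0.42 over 6 genes of chromosome 1. On chromosome 1, 1 of 6 lay above 0 (HIST3H2BB, at 2.17, 1.83 and 2.60 FPKM), and on chromosome 6 this was so for 17 of 21. Whether the chromosomes differ was not tested.

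H2A and H2B genes often stand head to head with a short shared promoter. Among rows that follow each other by start, 11 such pairs stood 205 to 346 bases apart. In 8 of them at least 1 gene reached 1 FPKM and in 5 both did. Of the 8 pairs, 5 had partners within 2-fold of each other in at least 1 library. HIST1H2BK and its H2A neighbour HIST1H2AH are not counted, because the HIST1H4I row inside that of HIST1H2BK comes between them in this order. Their values were far apart: 92.5, 36.2 and 87.6 FPKM for HIST1H2BK and 0.131, 0.164 and 0.105 for HIST1H2AH. HIST1H2AC was 19.7 times as high as HIST1H2BC in vehicle cells, 9.49 times in erlotinib-resistant and 6.07 times in dual-resistant cells. HIST3H2A was 23.3, 15.3 and 13.7 times as high as its partner HIST3H2BB. In the pair HIST2H2BE and HIST2H2AC the H2B gene was the higher, by 7.54, 1.84 and 9.17 times, since the one was lowest and the other highest in erlotinib-resistant cells. HIST1H2BG was 3.87, 3.80 and 2.63 times as high as HIST1H2AE, and HIST1H2AG was 3.41, 1.25 and 2.25 times as high as HIST1H2BJ. Of these 5 pairs, 3 had the H2A gene higher in all 3 libraries and 2 had the H2B gene higher. In the other 3 pairs 1 gene stayed below 1 FPKM. HIST1H2BF was 1.77, 3.51 and 1.85 times as high as HIST1H2AD, and HIST1H2AM was 2.17, 1.49 and 1.83 times as high as HIST1H2BO. HIST1H2BN was 3.18, 0.763 and 1.10 times as high as HIST1H2AK.

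Histone genes outside the clusters were set beside them. Of 12 listed, 10 were compared. H2AFZ, which encodes H2A.Z, stood at 266, 202 and 274 FPKM in vehicle, erlotinib-resistant and dual-resistant cells, and H2AFX, which encodes the DNA damage histone H2A.X, at 49.6, 43.8 and 81.8 FPKM. The H3.3 genes H3F3A and H3F3B stood at 73.1, 63.2 and 61.8 and at 188, 143 and 166 FPKM. Either H3.3 gene alone exceeded the sum of all clustered H3 genes in every library. The replacement linker histones were lower in dual-resistant cells: H1F0, which encodes the H1.0 of differentiated cells, at 273, 216 and 67.0 FPKM, and H1FX at 261, 233 and 94.7 FPKM. They were 3.19-fold and 2.45-fold lower than in erlotinib-resistant cells, while the clustered HIST1H1C was highest in dual-resistant cells. HIST1H1D, the other clustered H1 gene compared, was lower in dual-resistant than in erlotinib-resistant cells, at 0.847 against 1.85 FPKM. H2AFY, which encodes macroH2A, was 2.01-fold lower in dual-resistant than in vehicle cells, at 73.9 against 149 FPKM. CENPA, the histone H3 of the centromere, was 2.34-fold higher in erlotinib-resistant than in vehicle cells, at 13.996 against 5.41 FPKM, with 15.2 in dual-resistant cells. These 10 genes gave 1 higher and none lower, then none higher and 2 lower, in the successive steps, with medians of -0.19 and 0.04. The background was 3.80% higher and 6.03% lower in the first step and 10.1% and 7.22% in the next. Against vehicle, 1 was higher and 3 lower in dual-resistant cells, where the background was 11.0% and 10.4%.

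The genes that make and process histone messages were taken next. Of 28 listed, 27 were compared, and none was higher and 1 lower in erlotinib-resistant against vehicle cells (median 0.03), against a background of 3.80% and 6.03%. In dual-resistant against erlotinib-resistant cells 1 was higher and none lower (median -0.12), against 10.1% and 7.22%. The called gene was CCNE2 both times, a cyclin at 4.60 FPKM in vehicle and 5.80 in dual-resistant cells, and listed at 0 in between. Against vehicle, CCNE1 was the only call among the 27 in dual-resistant cells, at 5.48 FPKM against 1.91. The background there was 11.0% higher and 10.4% lower. SLBP, the stem-loop binding protein, stood at 40.1, 37.7 and 50.9 FPKM and NPAT, the coactivator of histone gene transcription, at 5.04, 6.63 and 6.39. Among the larger differences within the limit were those of SNRPB, a core protein of small nuclear particles, at 381, 247 and 194 FPKM, of CSTF2, a cleavage factor subunit, at 28.2, 23.0 and 16.3, and of CPSF2, a subunit of the cleavage complex, at 28.2, 32.5 and 18.8.

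Of the 23 histone chaperone genes, 1 was higher and none lower in erlotinib-resistant against vehicle cells (median 0.11), and none was called in the next step (median 0.16), against a background of 3.80% higher and 6.03% lower, then 10.1% and 7.22%. HJURP, the chaperone of CENPA, was 3.20-fold higher, at 10.9 FPKM against 2.73, and stayed at 10.7 in dual-resistant cells. ASF1A, a chaperone of H3 and H4, was 2.18-fold lower in dual-resistant than in vehicle cells, at 8.83 against 20.4 FPKM, with 12.4 in erlotinib-resistant cells. CHAF1B, a subunit of the assembly factor CAF-1, stood at 3.10, 3.59 and 6.31 FPKM and ANP32E, a chaperone of H2A.Z, at 18.2, 28.9 and 34.5. The 18 DNA replication genes gave 3 higher and none lower, then 1 higher and 1 lower, against that same background, with medians of 0.10 and 0.36, beside -0.05 and 0.37 for the clustered histone genes. TYMS, the thymidylate synthase, stood at 5.54, 20.0 and 54.6 FPKM, CDT1, which licenses origins, at 8.74, 19.9 and 7.06, and MCM7, a helicase subunit, at 52.2, 109.8 and 74.4. RRM1, a subunit of ribonucleotide reductase, was 2.14-fold higher in dual-resistant than in vehicle cells.

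Non-histone genes inside the clusters were set beside the histone genes. Histone rows less than 1000 kb apart were taken as 1 cluster, so genes between the 3 chromosome 6 stretches are included. Of the 152 non-histone genes of chromosome 6 in this set, only 8, 1 and 2 lie within the stretches. Of the 173 symbols in the set 21 were compared, with medians of -0.12, -0.05 and -0.15 in the 3 comparisons. The medians of the histone genes were -0.05, 0.37 and 0.15. In erlotinib-resistant against vehicle cells 1 was higher and none lower, against a background of 3.80% and 6.03%. Dual-resistant against vehicle cells had 1 higher and 2 lower, against 11.0% and 10.4%. In dual-resistant against erlotinib-resistant cells 1 was higher and 1 lower, against 10.1% and 7.22%. The higher one, a chromosome 6 row with no gene name (uc021yqp), stood at 18.1 FPKM in dual-resistant cells and was listed at 0 in the others, and the lower one was PRSS16. PRSS16, a serine protease gene, stood at 12.7, 11.7 and 3.501 FPKM and HFE, the iron-regulating gene, at 1.76, 0.917 and 2.49. ZNF204P, a zinc finger pseudogene, stood at 1.92, 1.11 and 0.430 FPKM, and the noncoding LOC100507173 at 0.758, 3.03 and 1.02.

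**Figure D5:**
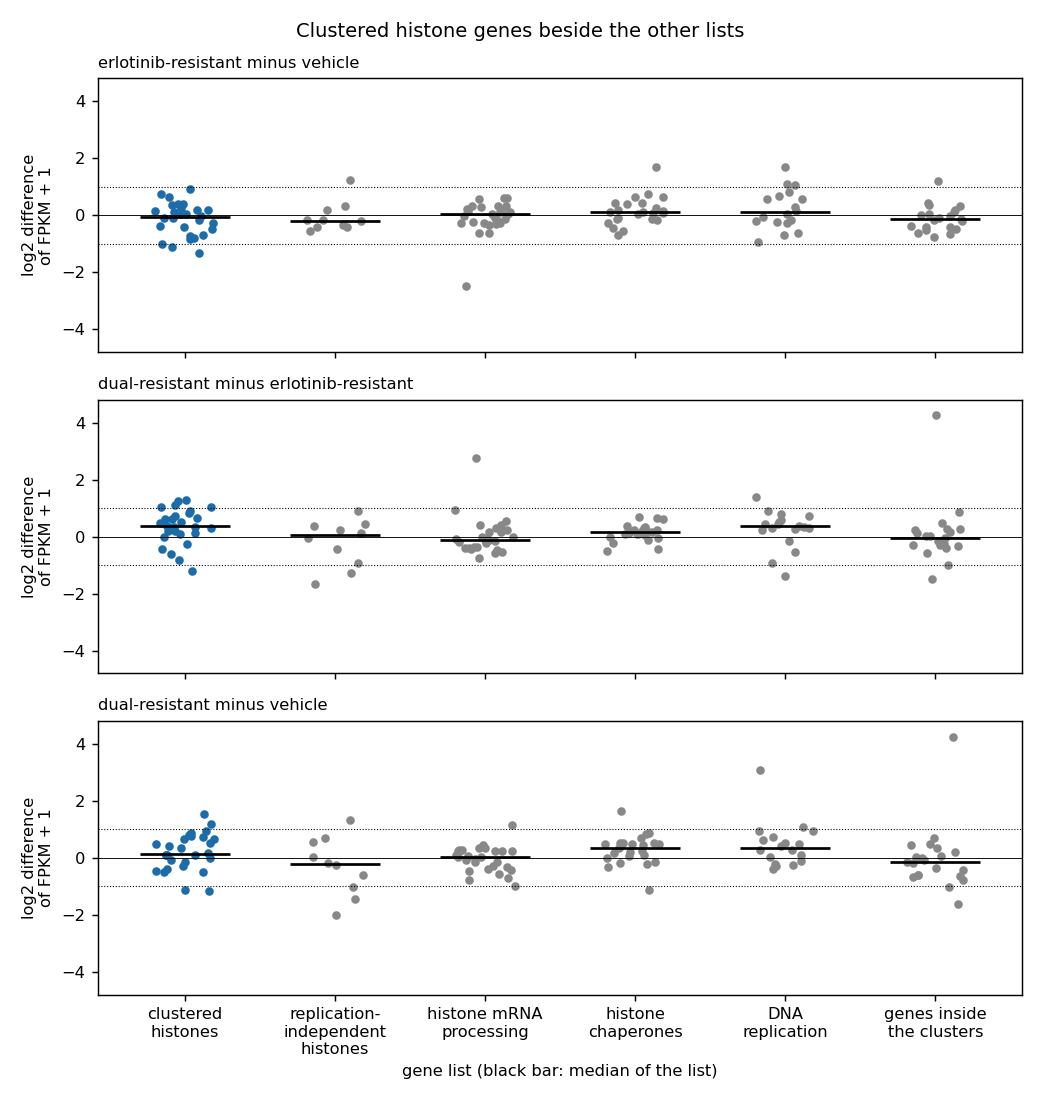
Log2 difference of FPKM + 1 (vertical axes) of each compared gene in the clustered histone list (blue) and 5 other lists (grey), with 1 panel per comparison, a black bar at each list's median and dotted lines at the limit of 1. In the middle panel the medians of the clustered histones and of the DNA replication genes lie at 0.37 and 0.36, and that of the genes inside the clusters at -0.05.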

How the data were processed

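RNA was measured in 3 populations of HCC827 cells, 1 library each. The authors deposited 1 table of FPKM (fragments scaled to transcript length and library size). Per the submitters' processing notes, TopHat 1.3, Cufflinks 1.3 and GRCh37 were used. Gene set, strandedness, library selection and the treatment of multiply mapped reads: not given in the sources used here. Table starts count from 0 (end minus start equals the RefSeq length for 3995 rows, and is 1 less for 439) and are printed from 1.

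From these values, rows of 1 symbol were summed, and symbols with a missing cell were left out. Genes that reached 1 FPKM in any library were compared as log2(FPKM + 1) differences, called at 1 or more in size, with Python 3.11.15 and pandas 2.3.3. The calls were checked on simulated data. No test is possible with 1 library per group. Named were genes of at least 5 FPKM in some library, called genes, genes listed at 0 in some libraries and at 1 FPKM or more in another, and up to 4 genes of each other list with the largest differences, beside SLBP, NPAT, H2AFX, H2AFZ, H1F0, H3F3A and H3F3B. Genes outside this rule that are named (HIST1H1D, HIST1H2AE, HIST1H2BJ, HIST3H2BB, HIST4H4, HIST1H2AM, HIST1H2BF, HIST1H2BN, HIST2H2BF, HIST1H3D, HIST1H3G, HIST1H4B, HIST1H4E, HIST1H4I, HIST1H4K, HIST2H3D, HIST1H2AD, HIST1H2AH, HIST1H2AK, HIST1H2BO and those listed at 0), and CCNE2 and uc021yqp, were chosen after their values were seen. The genes and lists were chosen with earlier results of these data known.

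Where RefSeq gave several starts, the first listed was used. Stem-loops were placed on GRCh38 through GENCODE 29 exons. Other scalings, pseudocounts and filters were tried.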

Additional observations from a re-analysis of the deposited data

How the results depend on the processing

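No paired analysis was possible because each group has 1 library, and for the same reason no library could be left out. Of 366 values of named genes under the alternatives, 348 kept their side of the limit, 13 lost it, 5 gained it and none reversed. When the FPKM sums of the libraries were made equal, the number of higher genes in erlotinib-resistant against vehicle cells became 1, and the counts in dual-resistant against vehicle cells became 5 higher and 1 lower. Among all 13386 genes then compared, 738 were higher in the former comparison, and 2056 were higher and 1055 lower in the latter. With a pseudocount of 0.1, 2 genes were higher in erlotinib-resistant against vehicle cells, 2 were lower in dual-resistant against erlotinib-resistant cells and 5 were higher in dual-resistant against vehicle cells. Among all 13365 genes the same counts were 854, 1370 and 1894, against 508, 965 and 1470 with a pseudocount of 1. With a pseudocount of 5, 1 gene was lower in erlotinib-resistant against vehicle cells, 1 was higher and 0 lower in dual-resistant against erlotinib-resistant cells, and 0 were higher and 0 lower in dual-resistant against vehicle cells. Among all 13365 genes the same counts fell to 355, to 591 and 456, and to 686 and 747. HIST1H2BK was the gene called under every one of these settings in both steps. A minimum of 5 FPKM left 12 genes, with 3 higher in dual-resistant against erlotinib-resistant cells and 0 lower in dual-resistant against vehicle cells. It left 10214 genes in all, where the same counts were 912 and 1060. Leaving out genes listed at 0 left 1 lower in dual-resistant against vehicle cells, and 1225 of 13027 among all genes. Without HIST1H2BK the H2B sum in erlotinib-resistant against vehicle cells had a ratio of 0.875, against 0.559 with it. Without HIST1H1C the H1 ratio was 1.35 in erlotinib-resistant against vehicle cells and 0.681 in dual-resistant against erlotinib-resistant cells, and 0.917 in dual-resistant against vehicle cells. Without HIST1H4H the H4 ratio was 0.677 in dual-resistant against vehicle cells, against 1.15, and 0.951 in dual-resistant against erlotinib-resistant cells, against 1.42. Scaling to equal sums turned the H2A ratio of dual-resistant against vehicle cells from 0.951 to 1.15 and the H3 ratio of erlotinib-resistant against vehicle cells from 0.988 to 1.11. The causes were not tested beyond what each setting removes. Levels under about 1 FPKM rest on few fragments, and smaller differences there were not detectable at this depth.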
